A study of Caenorhabditis elegans with 6 samples.

Results

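The proteasome genes described here are 33 Caenorhabditis elegans genes with a named subunit symbol, out of 17118 genes that had a probe set with a single symbol on the array. They were chosen by symbol, with earlier results of these data known. The 7 pas genes encode the alpha rings and the 7 pbs genes the beta rings of the core particle, 14 genes in all. The 6 rpt genes encode the ATPase ring and the 13 rpn genes the other subunits of the regulatory particle, or cap, 19 genes in all. The symbols occur on 39 probe sets, and a gene with more than 1 is given by its brightest, judged by the mean of the 6 arrays.

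The proteasome is the protease that degrades proteins tagged with ubiquitin in the cytosol and nucleus. The cap binds the ubiquitin chain, removes it, unfolds the substrate with its ATPases and threads it into the core, whose beta rings hold the cutting sites. In worms, subunit genes are induced together by SKN-1A, a form of the factor SKN-1 made at the endoplasmic reticulum, when proteasome activity is short. TDP-43, the human relative of TDP-1, is an RNA-binding protein that collects in ubiquitin-tagged deposits in motor neuron disease.

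Total RNA of whole worms of mixed stages was hybridised to 6 arrays, 3 from outcrossed worms with the loss-of-function allele tdp-1(ok803) and 3 from wild-type N2 worms, called biological replicates by the series' design text. Each array gave a log2 value per probe set, with medians of 5.41 to 5.52 over 22548 probe sets. The tdp-1 transcript itself (F44G4.4) had log2 values of 4.77, 4.78 and 5.47 in tdp-1(ok803), against 8.86, 9.22 and 8.85 in wild type. Its difference was -3.97 ± 0.21 (SE, limma adjusted p = 0.000815). In RNA of whole animals, fewer cells of a type and less RNA per cell cannot be told apart, and 3 arrays per genotype limit the precision of every value.

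The 6 arrays also differed in the 3' minus 5' difference of the actin and Gapdh control probe sets, which grows as RNA is more degraded or labelling stops nearer the 3' end. It was 4.01, 3.09 and 4.31 on tdp-1(ok803) replicates 1, 2 and 3, against 2.69, 4.12 and 2.52 on wild-type replicates 1, 2 and 3. It was thus smaller on tdp-1(ok803) replicate 2 and wild-type replicates 1 and 3, and larger on the other 3 arrays, and each set of 3 arrays held both genotypes. Most of the proteasome genes followed this division.

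None of the proteasome genes passed the test for a difference between the genotypes. Of 33 genes, 0 passed an adjusted p of 0.05 in limma, where 0.0577% of all probe sets passed (0.031% higher and 0.0266% lower), and 0 passed an unadjusted p of 0.05 in either direction, where 3.58% of probe sets were higher and 3.38% lower. Their adjusted p ran from 0.76 to 1.00. Most values leaned downward: 28 of 33 genes had a lower mean in tdp-1(ok803), where 49.5% of probe sets did. The median difference (tdp-1(ok803) minus wild type, log2) was -0.22 over the 14 core genes and -0.29 over the 19 cap genes, beside 0.0021 over all probe sets. Markers of body wall muscle, neurons and hypodermis also leaned lower, 3 of 4 genes in each list. So did 6 of 7 sperm and 5 of 8 germline and oocyte markers, but 2 of 5 intestinal ones were lower. The part of the tissues in the proteasome values was not tested. Every tdp-1(ok803) value lay below every wild-type value in 0 of 33 genes, where 4.84% of probe sets did so. Every value lay above in 1, pbs-3, where 6.8% of probe sets did so. In 26 genes the values followed the division of the arrays by control difference fully, and in 2 they ran against it. Such genes cannot separate the genotypes, as both sets of arrays hold both, so these counts cannot tell whether genotype had an effect.

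**Figure D1:**
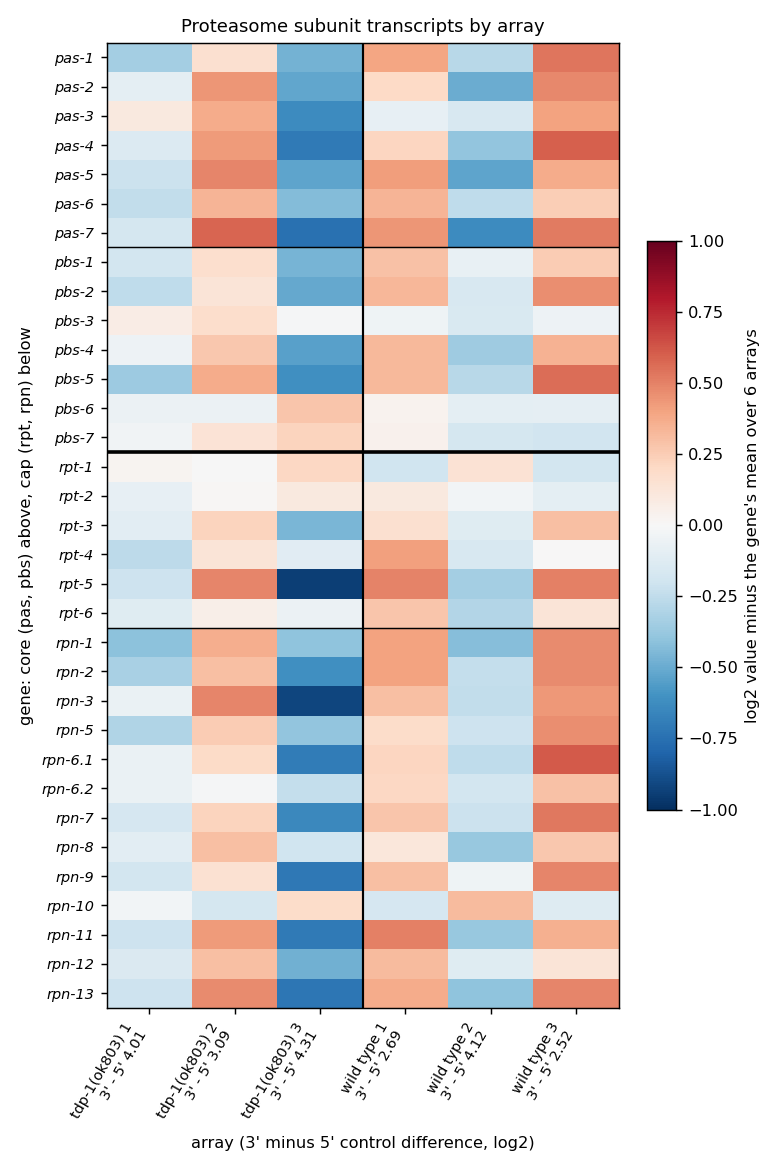
Each row is a proteasome gene and each column an array, with the colour giving the log2 value minus the gene's mean over the 6 arrays, and the 3' minus 5' control difference under each array's name. The columns with a larger control difference (tdp-1(ok803) replicates 1 and 3 and wild-type replicate 2) are mostly blue and the other 3 mostly red, in both genotypes, while pas-3, pbs-3, pbs-6, pbs-7, rpt-1, rpt-2 and rpn-10 do not follow fully.

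The alpha rings, encoded by pas-1 to pas-7, form the gated entrance of the core. All 7 pas genes had a lower mean in tdp-1(ok803), with differences from -0.44 to -0.10 and a median of -0.22. The value farthest below 0 was that of pas-1 (C15H11.7), with 8.88, 9.38 and 8.74 in tdp-1(ok803), against 9.61, 8.94 and 9.75 in wild type. The ranges overlap, since wild-type replicate 2 lies with the mutant values. Its difference was -0.44 ± 0.25 (SE, 95% interval -1.01 to 0.14, limma adjusted p = 0.822). The value nearest 0 was that of pas-3 (Y110A7A.14), with 11.03, 11.30 and 10.30 in tdp-1(ok803), against 10.84, 10.76 and 11.32 in wild type. Here tdp-1(ok803) replicate 3 alone lies below all wild-type values, and the difference was -0.10 ± 0.27 (95% interval -0.72 to 0.52). The widest spread among alpha genes was that of pas-7 (ZK945.2), with 8.71, 9.46 and 8.14 in tdp-1(ok803), against 9.32, 8.25 and 9.40 in wild type. Both genotypes span nearly the same range, and its 95% interval, -1.14 to 0.69, is the widest of the family.

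Of the beta subunits, 3 carry the cutting sites, pbs-1 the caspase-like one, pbs-2 the trypsin-like one and pbs-5 the chymotrypsin-like one. The gene pbs-1 (K08D12.1) had 10.36, 10.71 and 10.08 in tdp-1(ok803), against 10.84, 10.47 and 10.79 in wild type. The gene pbs-2 (C47B2.4) had 8.40, 8.78 and 8.14 in tdp-1(ok803), against 8.98, 8.49 and 9.12 in wild type. The gene pbs-5 (K05C4.1) had 8.88, 9.61 and 8.63 in tdp-1(ok803), against 9.57, 8.97 and 9.80 in wild type. In all 3 genes tdp-1(ok803) replicate 3 was the lowest array, and tdp-1(ok803) replicate 2 lay above wild-type replicate 2. The differences were -0.32 ± 0.19, -0.42 ± 0.22 and -0.41 ± 0.29 (SE), none passing (limma adjusted p = 0.83, 0.785 and 0.864). The 95% intervals reached from -0.75 to 0.12 for pbs-1, from -0.92 to 0.08 for pbs-2 and from -1.09 to 0.27 for pbs-5. Falls as large as those lower bounds and no difference at all both lie inside them.

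The other beta subunits build the ring and lack a cutting site. The gene pbs-4 (T20F5.2) leaned downward, at -0.21, and pbs-3, pbs-6 and pbs-7 upward. The gene pbs-3 (Y38A8.2) had 10.36, 10.47 and 10.28 in tdp-1(ok803), against 10.25, 10.14 and 10.24 in wild type, with no overlap but a gap of a few hundredths. Its difference was 0.16 ± 0.11 (SE, 95% interval -0.10 to 0.42, limma adjusted p = 0.861). The gene pbs-7 (F39H11.5) had 11.36, 11.53 and 11.62 in tdp-1(ok803), against 11.44, 11.22 and 11.20 in wild type. Wild-type replicate 1 lies inside the mutant range, and the difference was 0.22 ± 0.13 (SE, limma adjusted p = 0.83). The gene pbs-6 (C02F5.9) differed by 0.10, with values of 10.94 to 11.31 on all arrays.

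The cap's ATPase ring is built by RPT-1 to RPT-6. Its 6 genes ran from -0.44 to 0.16, with a median of -0.12 and 4 of 6 lower. The gene rpt-5 (F56H1.4) had 9.48, 10.18 and 8.75 in tdp-1(ok803), against 10.18, 9.35 and 10.19 in wild type. Replicate 2 of tdp-1(ok803) lies beside wild-type replicates 1 and 3, and the difference was -0.44 ± 0.37 (SE, limma adjusted p = 0.878). The gene rpt-3 (F23F12.6) had 11.33, 11.66 and 10.98 in tdp-1(ok803), against 11.60, 11.31 and 11.74 in wild type, a difference of -0.22 ± 0.20. The gene rpt-1 (C52E4.4) went the other way, with 11.20, 11.18 and 11.39 in tdp-1(ok803), against 10.98, 11.32 and 10.998 in wild type. Its ranges also overlap, and the difference was 0.16 ± 0.14 (limma adjusted p = 0.883). The remaining 3, rpt-2, rpt-4 and rpt-6, differed by 0.018, -0.17 and -0.08.

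All 13 rpn genes had a mean at or below that of wild type, from -0.50 to -0.00038, with a median of -0.30. The value farthest below 0 among all 33 genes was that of rpn-9 (T06D8.8), a scaffold subunit of the lid, the outer part of the cap. It had 9.42, 9.76 and 8.89 in tdp-1(ok803), against 9.91, 9.56 and 10.09 in wild type. Only tdp-1(ok803) replicate 2 lies within the wild-type range, and the difference was -0.50 ± 0.24 (SE, 95% interval -1.04 to 0.05, limma adjusted p = 0.76). The lid gene rpn-6.1 (F57B9.10), whose raised level goes with raised proteasome activity in long-lived worms without a germline, had 8.48, 8.73 and 7.84 in tdp-1(ok803), against 8.76, 8.28 and 9.15 in wild type. The ranges overlap, and the difference was -0.38 ± 0.28 (limma adjusted p = 0.864). Its paralogue rpn-6.2 (F59B2.5) differed by -0.21. Other scaffold genes, rpn-1, rpn-2, rpn-3, rpn-5, rpn-7 and rpn-12, lay between -0.42 and -0.21.

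Among cap subunits with an activity of their own, RPN-11 is the metalloprotease that cuts ubiquitin chains off the substrate. Its gene (K07D4.3) had 8.39, 9.02 and 7.89 in tdp-1(ok803), against 9.10, 8.21 and 8.95 in wild type, a difference of -0.32 ± 0.32 (SE, limma adjusted p = 0.897). The gene of its structural partner, rpn-8 (R12E2.3), had 9.64, 10.05 and 9.55 in tdp-1(ok803), against 9.86, 9.37 and 10.01 in wild type, and its means were equal to the hundredth, at 9.75. The ubiquitin receptor gene rpn-13 (C56G2.7) had 8.83, 9.50 and 8.31 in tdp-1(ok803), against 9.40, 8.63 and 9.52 in wild type, a difference of -0.30 ± 0.33. The other receptor gene, rpn-10 (B0205.3), had 11.31, 11.16 and 11.52 in tdp-1(ok803), against 11.17, 11.65 and 11.21 in wild type. Its 3 arrays with the larger control difference lie above the other 3, where those of rpn-11 and rpn-13 lie below, and the difference was -0.013 ± 0.17 (limma adjusted p = 0.994).

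The spread that these genes shared ran across the genotypes. In 26 of 33 genes, 10 of the core and 16 of the cap, all 3 arrays with the smaller 3' minus 5' control difference lay above all 3 with the larger, where 14.2% of probe sets did. In 2, rpt-1 and rpn-10, all 3 lay below, where 19% of probe sets did, and 5, pas-3, pbs-3, pbs-6, pbs-7 and rpt-2, did neither. In the lists described below, the first order also held for 6 of 11 genes of CDC-48 and its cofactors and 4 of 8 germline and oocyte markers. It held for 8 of 28 cullin ligase and 3 of 9 eIF3 genes, but for 0 of 4 neuron and 0 of 4 hypodermis markers. A share over probe sets of like level is not given here. Among the 33 proteasome genes, the array with the lowest value was tdp-1(ok803) replicate 3 for 23 and wild-type replicate 2 for 5. The array with the highest value was wild-type replicate 3 for 17, and tdp-1(ok803) replicate 2 and wild-type replicate 1 for 6 each. Centred on each gene's mean, the core averaged -0.14, 0.29 and -0.41 on tdp-1(ok803) replicates 1 to 3, against 0.23, -0.29 and 0.32 on wild-type replicates 1 to 3. The cap averaged -0.16, 0.22 and -0.41 on the tdp-1(ok803) arrays, against 0.25, -0.19 and 0.29 on the wild-type arrays. Core and cap thus moved together from array to array, and the core mean minus the cap mean stayed between 0.0044 and 0.065 in tdp-1(ok803), against -0.10 to 0.026 in wild type.

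**Figure D2:**
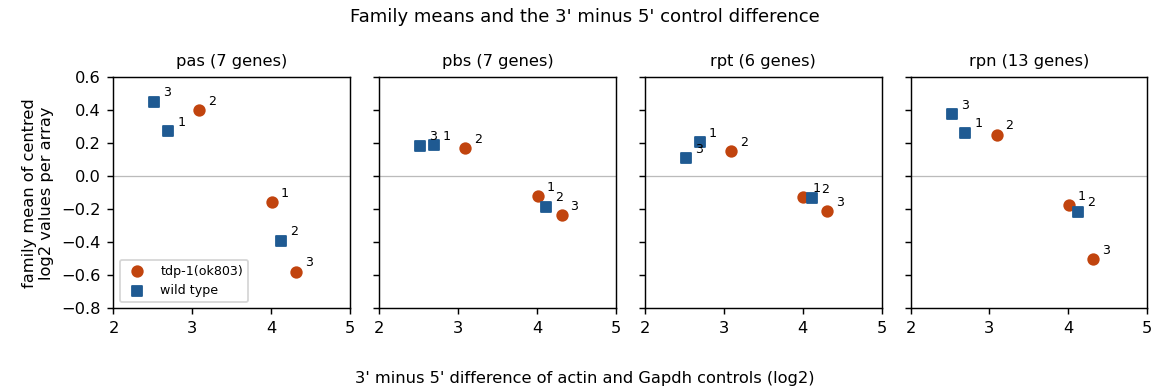
Each panel plots, for 1 family, the mean of its genes' centred log2 values on each array against the array's 3' minus 5' control difference, with replicate numbers beside the points. In all 4 panels the 3 arrays with a difference of 2.52 to 3.09 lie above the 3 with 4.01 to 4.31, and circles (tdp-1(ok803)) and squares (wild type) occur in both sets.

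The slope on the control difference was described per family, with no test between families. At fixed genotype the median slope, in log2 value per log2 unit of the 3' minus 5' difference, was -0.62 for pas, -0.32 for pbs, -0.24 for rpt and -0.50 for rpn genes, against 0.058 over all probe sets. With the dimmer probe set of genes that had a second one, it was -0.50 for pbs, -0.34 for rpt and -0.42 for rpn genes. With the brighter ones the slope was below 0 in 29 of 33 genes, and ran from -0.83 for pas-7 to 0.29 for rpn-10. With the control difference as a covariate, the median difference between genotypes was 0.15 for the core and 0.015 for the cap, beside -0.027 over all probe sets, so the core's sign turned and the cap's lay near 0. Then 10 of 33 genes were lower in tdp-1(ok803), where 56.5% of probe sets were, and 0 passed (smallest limma adjusted p = 0.421, where 0.111% of probe sets passed). At an unadjusted p of 0.05 in that fit, 4 of 33 were higher, pas-2, pas-5, pas-7 and rpn-8, and 0 lower. Of 22548 probe sets, 1089 were higher and 1321 lower, 10.7% in either direction.

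Within the 2 sets of arrays divided by control difference, the downward lean was missing in the core medians and smaller in the cap medians. Genotype and control difference were partly tied, as the larger set held tdp-1(ok803) replicates 1 and 3 but only wild-type replicate 2. In the smaller set tdp-1(ok803) replicate 2, at 3.09, also lay above wild-type replicates 1 and 3, at 2.69 and 2.52. The part of each in the lean was not tested. Among the 3 arrays with the smaller difference, tdp-1(ok803) replicate 2 against wild-type replicates 1 and 3, the median difference was 0.032 for the core and -0.03 for the cap, beside 0.0012 over all probe sets. There 6 of 14 core and 13 of 19 cap genes were lower, where 11229 of 22548 probe sets were. Among the 3 with the larger, tdp-1(ok803) replicates 1 and 3 against wild-type replicate 2, the median difference was 0.018 for the core and -0.12 for the cap, beside -0.022 over all probe sets. Here 7 of 14 core and 14 of 19 cap genes were lower, where 12191 of 22548 probe sets were. With these 2 sets of arrays as a block, the medians were 0.028 for the core and -0.06 for the cap, with 7 of 14 and 15 of 19 genes lower. In that fit 0 of 33 passed, where 21 of 22548 probe sets did. The genes that lay lower in both sets included rpn-9, at -0.24 and -0.40, pbs-2, at -0.27 and -0.22, and pas-1, at -0.30 and -0.13. With the block these 3 differed by -0.32, -0.24 and -0.22 (limma adjusted p = 0.647, 0.641 and 0.667). Higher in both sets were pbs-3, at 0.23 and 0.18, and pbs-7, at 0.21 and 0.27.

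**Figure D3:**
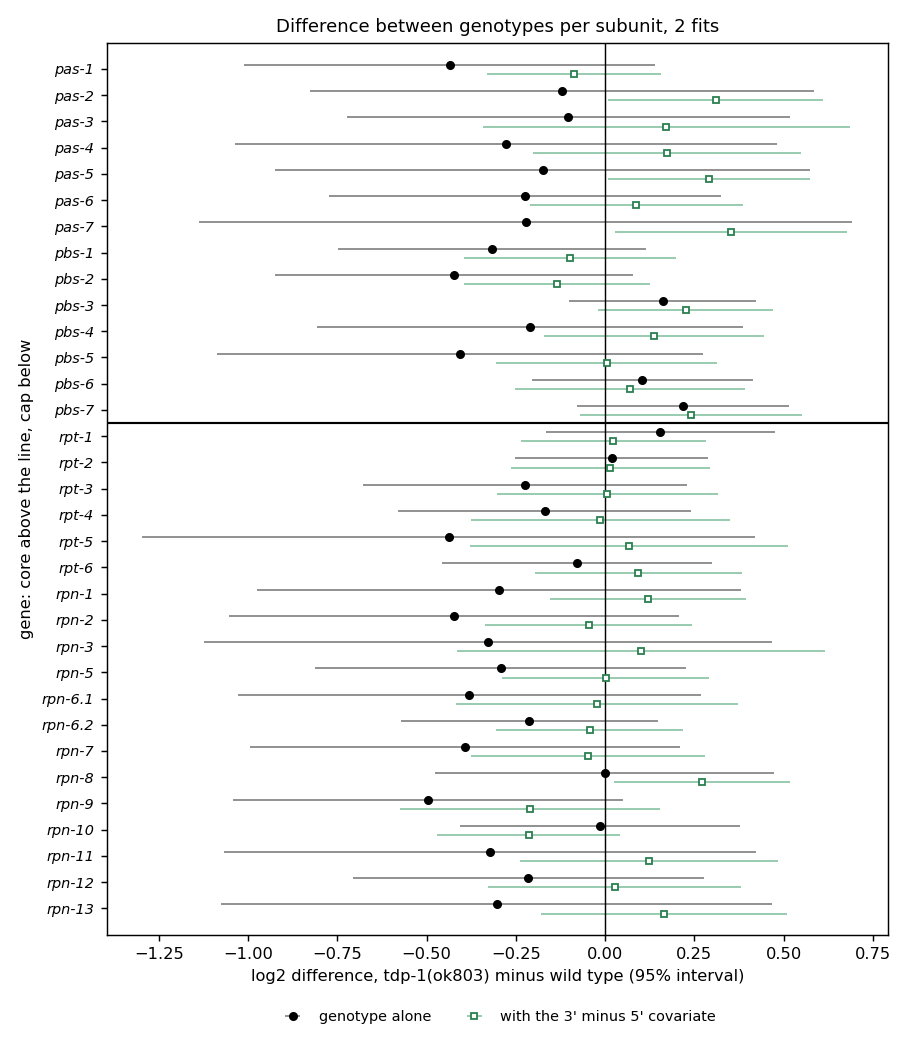
Points give the log2 difference, tdp-1(ok803) minus wild type, with its 95% interval for each gene, from limma with genotype alone (black circles) and with the 3' minus 5' control difference as a covariate (green squares). With genotype alone every interval includes 0, and with the covariate most points lie nearer 0 or above it, those of pas-2, pas-5, pas-7 and rpn-8 with intervals just above 0.

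The size of the median differences depended on the array left out, though all stayed negative except the core median without tdp-1(ok803) replicate 3. Without tdp-1(ok803) replicate 3 the core median was 0.0058 and the cap median -0.08, and without wild-type replicate 3 they were -0.04 and -0.14. Without wild-type replicate 1 they were -0.11 and -0.17, and without tdp-1(ok803) replicate 1 they were -0.18 and -0.23. Without tdp-1(ok803) replicate 2 they were -0.46 and -0.49, and without wild-type replicate 2 they were -0.44 and -0.47. No gene passed whichever array was left out. Weighting the arrays by their estimated quality was the only other fit in which genes passed, 8 of 14 in the core and 13 of 19 in the cap, 20 lower and rpt-1 higher, where 27.9% of all probe sets passed. That fit gave weights of 4.16 to tdp-1(ok803) replicate 1 and 7.91 to wild-type replicate 1, which lie on opposite sides of the control difference, and 0.27 to 0.54 to the other 4 arrays.

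Of the 33 genes, 6 had a second, dimmer probe set, and in 5 of them the dimmer one lay lower in tdp-1(ok803) than the brighter one. For pbs-7 the dimmer probe set had 9.95, 10.32 and 8.83 in tdp-1(ok803), against 10.53, 9.80 and 10.68 in wild type. Its difference was -0.64 ± 0.39 (SE), against 0.22 for the brighter one, so the sign of pbs-7 depended on the probe set. For pbs-3 the dimmer one had 9.92, 10.42 and 9.12 in tdp-1(ok803), against 10.39, 9.86 and 10.62 in wild type. Its difference was -0.47 ± 0.33, against 0.16, and the separation of the genotypes seen with the brighter probe set was not there. The dimmer probe sets of rpt-1, rpt-2 and rpn-10 differed by -0.22, -0.48 and -0.27, against 0.16, 0.018 and -0.013 for the brighter ones. For rpn-2 (C23G10.4) the brighter probe set differed by -0.42, while the dimmer one averaged 4.15 ± 0.15 in tdp-1(ok803) and 4.19 ± 0.05 in wild type (SD, n = 3 each), and whether that lies above background was not assessed.

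**Figure D4:**
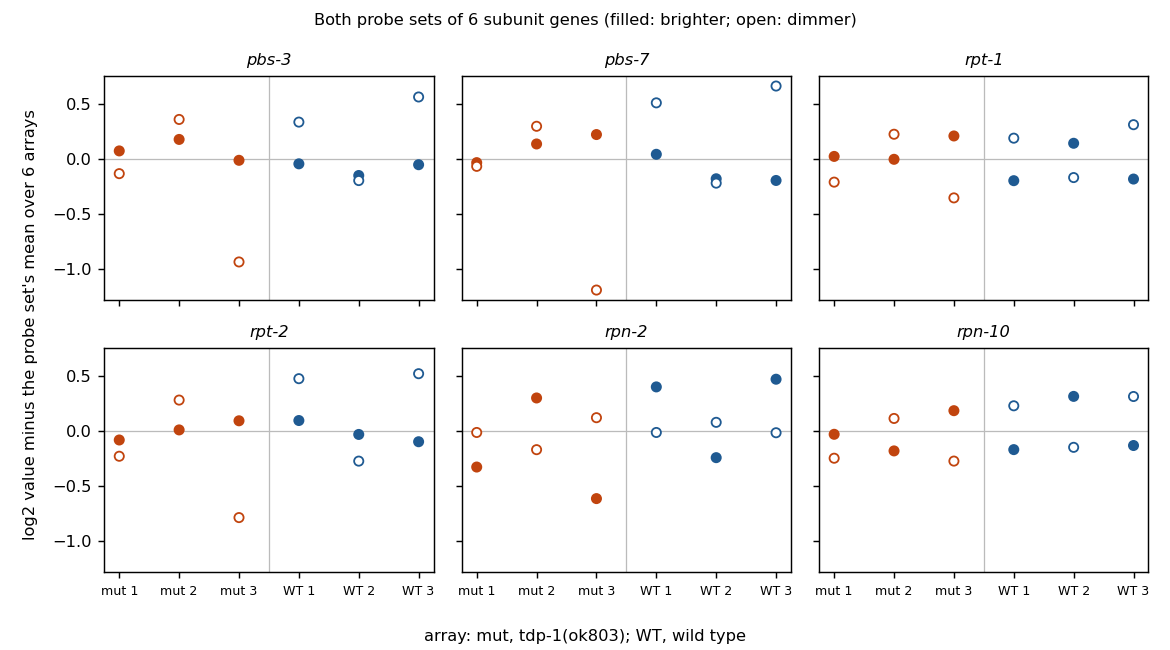
Each panel gives both probe sets of a gene, as log2 values minus the probe set's own mean, on the 3 tdp-1(ok803) arrays (left, orange) and the 3 wild-type arrays (right, blue), filled for the brighter and open for the dimmer one. For pbs-3, pbs-7, rpt-1, rpt-2 and rpn-10 the open points are low on tdp-1(ok803) replicates 1 and 3 and wild-type replicate 2 and high on the other arrays, while the filled points are flatter or run the opposite way.

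The same 5 dimmer probe sets had all 3 arrays with the smaller control difference above all 3 with the larger, and so did the brighter one of rpn-2. Of the 27 genes with a single probe set, 25 did so, and 26 were lower in tdp-1(ok803). Of the 6 brighter probe sets, 2 were lower. Among the exceptions to the lean, pbs-3, pbs-7, rpt-1 and rpt-2 had a second probe set, and pbs-6 was measured by a single one. The genes rpn-2 and rpn-10 also had a second probe set, but their brighter ones were lower, by -0.42 and -0.013. Why these genes differed was not tested. Where the probe sets lie along the transcripts was not analysed here. Of the 33 probe sets used, 20 are of the array's class that may match several transcripts (_s_at) and 13 of the unique class (_at).

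Genes around the proteasome were set beside it from lists chosen by name. The factor gene skn-1 (T19E7.2) had 9.53, 9.68 and 10.04 in tdp-1(ok803), against 9.25, 9.38 and 9.22 in wild type. Its ranges do not overlap, which held for 1 of 5 genes in its list, where 6.8% of probe sets were higher without overlap. The difference was 0.47 ± 0.15 (SE, limma adjusted p = 0.558), without passing, and 0.44 and 0.41 within the arrays of smaller and of larger control difference. A second probe set of skn-1 had 8.94, 9.02 and 9.14 in tdp-1(ok803), against 8.60, 8.87 and 8.57 in wild type, also without overlap, a difference of 0.35 ± 0.13. The last one had 3.87 to 4.44 on all arrays. The other 4 genes that serve SKN-1A differed by -0.18 for the protease gene ddi-1, -0.14 for the glycanase gene png-1, and 0.21 and -0.17 for sel-1 and sel-11, which act in degradation at the endoplasmic reticulum. With the control difference as a covariate, png-1 (F56G4.5) differed by -0.41 (95% interval -0.66 to -0.15, limma adjusted p = 0.268), sel-1 by 0.06, ddi-1 by 0.0053, sel-11 by -0.03 and skn-1 by 0.38. None of the 5 passed in either fit.

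Of 6 genes for factors that bind the proteasome or carry substrates to it, 4 had all 3 arrays with the smaller control difference above the other 3, and dss-1 and psme-3 did not. The median difference was -0.15, with 4 lower, and with the covariate it was 0.10, with 1 lower. The shuttle gene rad-23 (ZK20.3) had 8.05, 8.77 and 7.42 in tdp-1(ok803), against 8.67, 8.07 and 8.91 in wild type, a difference of -0.47 ± 0.35 (SE, limma adjusted p = 0.864). The deubiquitinase genes usp-14 and ubh-4 differed by -0.27 and -0.06, dss-1, which encodes a small lid subunit, by 0.17, and the core activator gene psme-3 by 0.14. For CDC-48, the ATPase that extracts ubiquitin-tagged proteins, and its cofactors the median was 0.01 over 11 genes, with cdc-48.1 at -0.35 and cdc-48.2 at 0.01, and with the covariate the median was 0.03. The gene of smallest p there, ubxn-6 (H06H21.6), had 10.42, 10.66 and 10.50 in tdp-1(ok803), against 10.45, 10.08 and 10.38 in wild type, with overlap. Of the 11 genes 1, ubxn-1, was lower without overlap, by -0.12, where 4.84% of probe sets were. None of these genes passed.

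Ubiquitin genes had differences close to 0. The polyubiquitin gene ubq-1 (F25B5.4) differed by -0.008 ± 0.13 and the activating enzyme gene uba-1 (C47E12.5) by 0.11 ± 0.12 (SE). The gene uba-1 had 11.16, 11.37 and 11.34 in tdp-1(ok803), against 11.26, 11.20 and 11.08 in wild type, with overlap. The array's ubiquitin control probe set at the 3' end had 12.21, 12.41 and 11.95 in tdp-1(ok803), against 12.39, 12.31 and 12.31 in wild type. The one at the 5' end had 7.29, 7.61 and 7.27 in tdp-1(ok803), against 7.54, 7.35 and 7.66 in wild type. The 3 arrays with the larger control difference were the lowest at both ends, in both genotypes. At the 3' end this was narrow, with 12.305 on wild-type replicate 2 against 12.308 on wild-type replicate 3. The gap between the ends of ubiquitin thus did not divide the arrays as that of actin and Gapdh did.

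Complexes related to the cap in structure gave no call. The COP9 signalosome, which resembles the lid subunit by subunit, had a median of 0.11 over 7 genes with 1 lower, and 0.19 with the covariate. Its gene of smallest p, csn-3 (Y38C1AA.2), had 7.73, 8.04 and 7.97 in tdp-1(ok803), against 7.63, 7.68 and 8.04 in wild type. The translation factor eIF3 had a median of -0.12 over 9 genes with 7 lower, but 0.07 with 4 lower with the covariate. Its gene of smallest p, eif-3.I (Y74C10AR.1), had 6.86, 6.96 and 6.75 in tdp-1(ok803), against 6.96, 7.19 and 7.16 in wild type. The ranges of both genes overlap. In the eIF3 list 1 of 9 genes, eif-3.E, was lower without overlap, by -0.21, where 4.84% of probe sets were. Over 28 genes of the cullin ligases, which attach ubiquitin, 14 were lower, and 13 with the covariate. The adaptor gene skr-4 (Y60A3A.18) had 7.36, 6.91 and 7.46 in tdp-1(ok803), against 6.50, 6.39 and 6.23 in wild type, without overlap. It differed by 0.87 ± 0.17 (SE, limma adjusted p = 0.232) without passing. The list held 3 genes higher without overlap, skr-4, skr-11 and cul-6, where 6.8% of probe sets were, and 0 lower. The gene cul-1 differed by -0.64, with overlap. Of 30 genes listed for ubiquitin conjugation only 4, let-70 and uev-1 to uev-3, were found under a single symbol, with a median of 0.16 (0.12 with the covariate), and none of the ubc genes was analysed here. The gene uev-3 (F26H9.7) had 7.94, 7.93 and 7.57 in tdp-1(ok803), against 7.52, 7.44 and 7.62 in wild type, with overlap.

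Markers of tissues were read beside these values, and whether each lay above background was not assessed. Mean marker levels, centred as above, were -0.23 to 0.16 in tdp-1(ok803), against -0.01 to 0.13 in wild type, for 8 germline and oocyte genes. They were -0.12 to 0.07 in tdp-1(ok803), against -0.08 to 0.20 in wild type, for 7 sperm genes, and -0.12 to 0.16 in tdp-1(ok803), against -0.10 to 0.10 in wild type, for 5 intestinal genes. For 4 body wall muscle genes they were -0.30 to -0.20 in tdp-1(ok803), against -0.21 to 0.51 in wild type, and for 4 neuron genes -0.34 to 0.02 in tdp-1(ok803), against 0.09 to 0.22 in wild type. For 4 hypodermal genes they were -0.57 to 0.06 in tdp-1(ok803), against -0.28 to 0.54 in wild type. In the muscle, neuron and hypodermis lists 3 of 4 genes were lower, with median differences of -0.60, -0.42 and -0.31, and with the covariate -0.17, -0.44 and -0.16. In the germline, sperm and intestine lists 5 of 8, 6 of 7 and 2 of 5 were lower, with median differences of -0.15, -0.06 and 0.12. The part of tissue makeup or stage in the proteasome values was not tested.

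In each of the muscle, neuron and hypodermis lists 1 of 4 genes lay lower in tdp-1(ok803) without overlap, where 4.84% of all probe sets did. In each list it was the gene picked for the smallest p. Each of these 3 genes differed by more than any proteasome gene. The muscle gene unc-22 (ZK617.1), for the giant protein twitchin, had 6.58, 6.49 and 7.18 in tdp-1(ok803), against 8.05, 7.82 and 7.98 in wild type, a difference of -1.20 ± 0.19 (SE, limma adjusted p = 0.163). The neuron gene rab-3 (C18A3.6), for a synaptic vesicle GTPase, had 7.29, 6.95 and 7.03 in tdp-1(ok803), against 7.77, 7.76 and 7.86 in wild type, a difference of -0.71 ± 0.13 (limma adjusted p = 0.218). The cuticle collagen gene rol-6 (T01B7.7) had 8.08, 8.32 and 7.67 in tdp-1(ok803), against 9.30, 8.51 and 9.54 in wild type, a difference of -1.10 ± 0.28 (limma adjusted p = 0.4). None of the 3 passed, and with the covariate they differed by -1.25, -0.72 and -0.71. In each of these lists 1 gene lay higher. It was unc-15 in muscle, by 0.27, col-19 in hypodermis, by 0.17, and snb-1 in neurons, by 0.30 and without overlap. The hypodermal gene lin-26 differed by -0.03. The germline, sperm and intestine lists gave no gene without overlap. Their genes of smallest p, gld-1 of the germline, gsp-3 of sperm and vit-6 of the intestine, differed by 0.30, -0.11 and 0.21.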

How the data were processed

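The values of the deposited table are on a log2 scale, with 1 column for each Affymetrix C. elegans Genome Array, and were made by the authors with RMA and Partek, per the submitters' processing notes, with versions and settings not given in the sources used here. RMA corrects background, normalizes between arrays and summarises probes. The log2 scale was read from the values. Labelling started at the 3' end, per the labels' protocols.

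Tests left out the 77 control probe sets. The platform annotation gives a single symbol for 20766 of the other 22548, and the WBcel235 gene table supplied current symbols, matched on gene ID. All 33 genes were measured, with no filter on low values. Differences come from limma 3.58.1 in R 4.3.3 with genotype alone, two-sided, adjusted by Benjamini-Hochberg across the 22548 probe sets at a threshold of 0.05. The fit was tested on simulated data with noise independent between arrays and probe sets, unlike the array pattern that most proteasome genes shared here. Slopes and covariate values add the array's 3' minus 5' difference, the mean over actin and Gapdh. Families and lists are described by counts and medians, with no test.

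Genes given in full were tdp-1, in each family those with the highest mean and the largest difference each way, subunits with a known activity, those without overlap, and the gene of smallest p in each list (at most 2; values by array are not given for the germline, sperm and intestine genes). Other genes named, such as pas-7, png-1, psme-3 and the second probe sets, were added after their values were seen. The members, lists, covariate and division of the arrays were chosen with earlier results of these data known. Alternatives were other moderation, normalization, filter, threshold, weights and probe set choices, a block for the replicate number, and each array left out in turn. The dimmer probe sets and the block for the control difference were chosen after seeing the data. Figures used matplotlib 3.10.9.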

Additional observations from a re-analysis of the deposited data

How the results depend on the processing

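With 3 arrays per genotype, and signal over background not assessed, small differences of proteasome genes could not be detected. The core median ran from -0.46 to 0.0058 and the cap median from -0.49 to -0.08 when single arrays were left out, and they were 0.15 and 0.015 with the 3' minus 5' covariate. Of the 33 genes 0 passed in any fit but that with array weights, which called 8 core genes, 13 cap genes and 6291 probe sets. Of the 16 proteasome genes given in full, 9 passed with array weights and 0 in the other 18 or 19 settings that gave a value for the gene, and 5 kept their sign in all of them. Without the weights, their smallest adjusted p in limma was 0.272. The count over all probe sets, 13, was 0 in an unmoderated model, 7 with equal array medians, 6 at a threshold of 0.01, and 4 to 97 with an array left out. It was 25 with the covariate, 21 with the 2 sets of arrays as a block, and 2 and 1 within the sets of smaller and larger control difference. In the fit with the replicate number as a block the count was 5, and 0 proteasome genes passed. Samples with the same number did not deviate together (correlations of 0.05, -0.61 and -0.46 across probe sets). Arrays of the same number also differed in the 3' minus 5' control difference, so these correlations cannot tell whether samples were handled in pairs. The cause of these changes was not tested.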
